A study of Mus musculus with 8 samples.

Results

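Sphingosine-1-phosphate (S1P) is a lipid signal, and 9 genes of its receptors, its synthesis, its export and its breakdown are described here out of 17983 genes in the deposited tables. They were taken by gene symbol: the receptors S1pr1, S1pr2, S1pr3 and S1pr5, the kinases Sphk1 and Sphk2, the exporter Spns2, the lyase Sgpl1 and the phosphatase Sgpp1. All 9 symbols were found and all 9 passed the filter on low counts. The set was chosen by their ketogenic-against-control differences in these same libraries, which were already known. Their changes and adjusted p-values therefore describe where they lie in a fit across all genes, and nothing is supported with them.

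The libraries came from whole brain of male db/db mice, which lack the signalling form of the leptin receptor and become obese and diabetic. Ketogenic libraries (4) were from mice given a ketogenic diet, in which fat replaces most carbohydrate, from 9 weeks of age until brains were taken at 6 months, and control libraries (4) from mice on a normal diet over the same time. Every group was db/db, so no lean or non-diabetic brain stands beside them, and the composition of the diets is not known from the sources used here. Nothing in the labels says that each library is a separate animal, so p-values measure the spread between these libraries. Total counts were 34450860 to 40233361 per library, and the first principal component separated the diets, at -22.7 to -5.94 in control and 2.90 to 34.4 in ketogenic libraries, with ketogenic replicate 3 at the far end. Counts scaled to 1 common library size (CPM) use edgeR's trimmed mean of M values (TMM) factors, and levels are compared between genes in the authors' FPKM, which also divide by gene length.

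S1P is made inside cells when sphingosine kinases phosphorylate sphingosine, and it leaves endothelial and other cells through the carrier Spns2. Outside, it acts on G protein-coupled receptors that set vascular barrier tightness, immune cell traffic and the behaviour of astrocytes and oligodendrocytes. Inside, phosphatases return it to sphingosine and a lyase of the endoplasmic reticulum destroys it.

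The receptors are related in sequence without being near-identical. The coding stretch of S1pr1 that is most like the other receptors is shown because reads that match several genes can be assigned to the wrong one. Each line holds 45 coding bases from GENCODE release M21 (GRCm38), on the gene's strand, and capitals mark the 24 bases that are the same in all 5 receptors.
S1pr1, chr3:115712329-115712373 (-): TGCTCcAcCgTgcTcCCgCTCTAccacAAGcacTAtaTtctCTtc
S1pr2, chr9:20967952-20967996 (-): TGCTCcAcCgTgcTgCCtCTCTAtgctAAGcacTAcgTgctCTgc
S1pr3, chr13:51419340-51419384 (+): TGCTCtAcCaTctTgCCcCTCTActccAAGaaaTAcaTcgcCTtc
S1pr4, chr10:81499012-81499056 (-): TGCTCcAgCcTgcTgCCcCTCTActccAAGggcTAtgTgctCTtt
S1pr5, chr9:21244541-21244585 (-): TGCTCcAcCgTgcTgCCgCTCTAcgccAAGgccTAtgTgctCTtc

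Within this stretch S1pr5 matched S1pr1 at 38 of 45 bases, S1pr2 at 35, S1pr4 at 34 and S1pr3 at 31. Over whole coding sequences, 60.3% to 67.7% of aligned bases were identical between pairs of receptors, and the longest identical coding run was 19 bases, between S1pr2 and S1pr5. Whole transcripts shared runs of up to 26 bases. The sources used here give neither the read length nor the treatment of reads with several matches.

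Of the 9 genes, 1 fell (S1pr1), 1 rose (Spns2) and 7 did not pass an adjusted p under 0.05 in edgeR's quasi-likelihood test of ketogenic against control, where 6.52% of 14895 tested genes passed (3.3% higher and 3.22% lower). Since the genes were picked with this contrast in view, nothing is read from that count. The median log2 change was -0.03 over the 9 genes and close to 0 (-0.0029) over all tested genes. The 4 control and 4 ketogenic CPM values did not overlap for 3 of the 9, and did not overlap for 13.7% of all tested genes. Spns2 and Sgpl1 lay wholly higher in ketogenic libraries (7.22% of all tested genes) and S1pr1 wholly lower (6.51%). In FPKM the groups of Sgpl1 overlapped. In whole tissue, fewer cells of a type and less RNA per cell cannot be told apart.

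**Figure D1:**
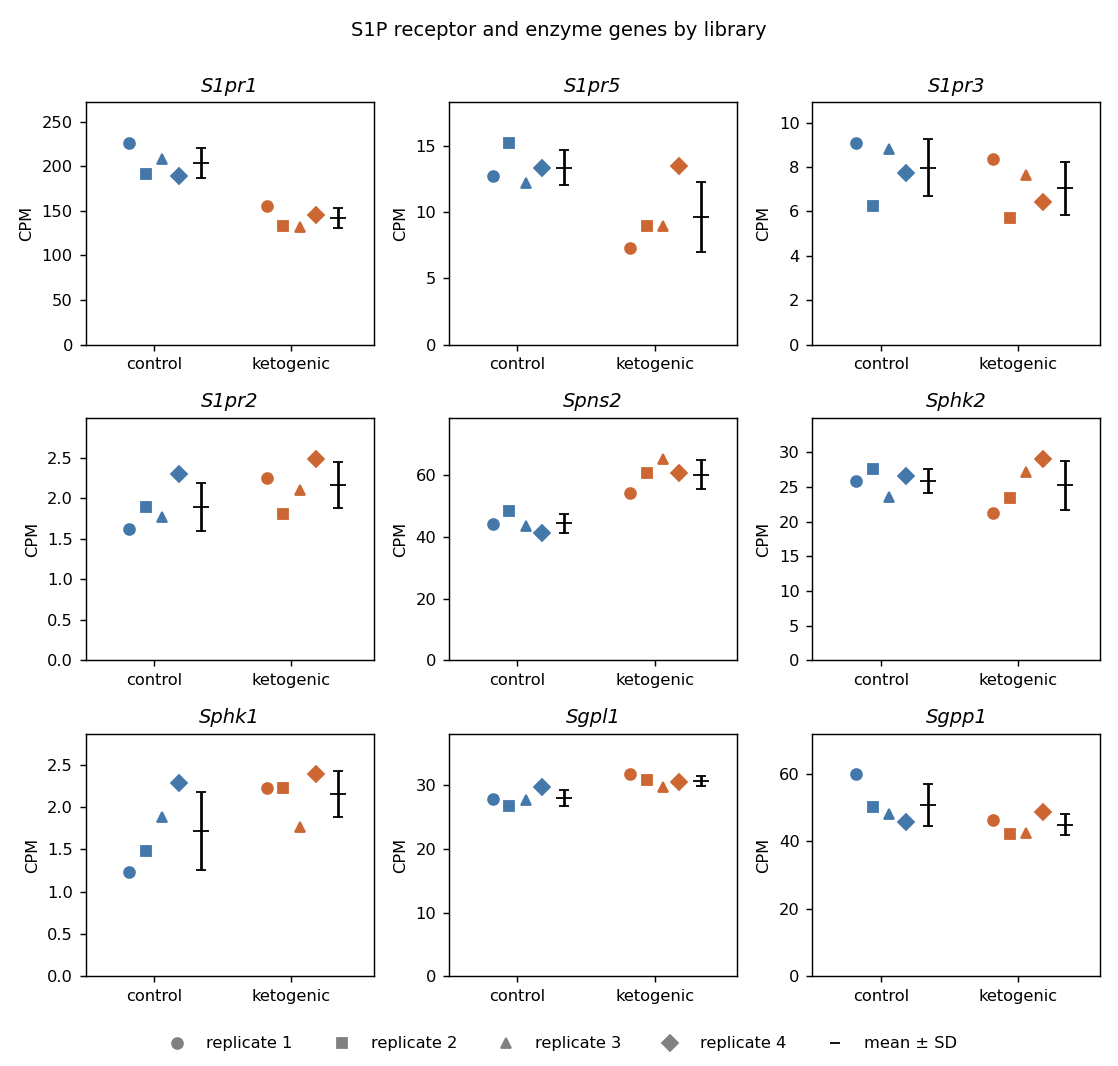
CPM of the 9 S1P genes in each control (blue) and ketogenic (orange) library, with a symbol per replicate number and the mean ± SD of 4 libraries in black; each axis starts at 0. All 4 ketogenic libraries lie below all 4 control libraries for S1pr1 and above them for Spns2, and S1pr5 is low in 3 ketogenic libraries and at 13.4 CPM in ketogenic replicate 4.

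S1pr1 encodes the receptor that signals through inhibitory G proteins, and in brain it is known from astrocytes and endothelium. The gene (ENSMUSG00000045092.8) lies on chr3:115710433-115715072, minus strand of GRCm38, with 2 exons in 1 listed transcript. Control replicates 1 to 4 held 226, 192, 208 and 189 CPM, and ketogenic replicates 1 to 4 held 156, 134, 132 and 145 CPM. Every ketogenic library was lower than every control library, and the highest ketogenic value was in replicate 1. Means were 204 ± 17.3 and 142 ± 11.1 CPM (SD, n = 4 each). The log2 change was -0.52 ± 0.07 (SE), which is 1.44-fold lower, with an edgeR adjusted p of 0.0016 and the 8th smallest p of the 14895 genes. The value ran from -0.57 to -0.47 with each library left out in turn and passed in all 8 of those fits (adjusted p up to 0.00874).

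Over all tested genes 3.22% fell and 3.3% rose, which is the background for each marker list here. Of 7 astrocyte markers 4 fell and 3 did not pass. Those that fell were the water channel gene Aqp4, with a log2 change of -0.54, the gap junction gene Gja1 (-0.34), the filament gene Gfap (-0.26) and Aldh1l1 (-0.24), and the others were S100b (-0.10), Slc1a3 (-0.05) and Aldoc (0.06). The summed level of the 7 was 2349 to 2759 CPM in control and 2354 to 2522 CPM in ketogenic libraries, so the sums overlapped. Aldoc (1041 CPM) and Slc1a3 (687 CPM), which did not pass, made up most of the control mean of 2563 CPM. The overlap therefore says little about the 4 markers that fell. Among 8 endothelial markers 1 rose (Esam, 0.50) and 1 fell (Emcn, -0.59), and their summed level was 175 to 215 CPM in control and 181 to 205 CPM in ketogenic libraries. All 7 mural cell markers were tested and 1 fell, Rgs5 (-0.35), with sums of 128 to 173 and 122 to 139 CPM. Hemoglobin and other red cell genes were higher in ketogenic libraries, 4 of 4, with sums of 14.8 to 48.8 CPM in control and 66.7 to 109.6 CPM in ketogenic libraries. Of 6 microglial markers 1 rose (Tmem119, 0.36), and 0 of 7 neuronal, 0 of 4 fibroblast, 0 of 3 choroid plexus and 0 of 2 oligodendrocyte precursor markers passed. The neuronal markers that check the brain label were abundant in every library, with sums of 7827 to 8771 CPM in control and 7169 to 8738 CPM in ketogenic libraries. None of these markers was at 0 in any library, and their part in the S1pr1 and Spns2 differences was not tested.

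S1pr5, the receptor known in brain from oligodendrocytes, had the next largest decrease among the receptors and did not pass. It lies on chr9:21242912-21248443, minus strand, and a transcript of the opposite strand, Gm48303, which was not analysed here, overlaps it by 731 bases. Control replicates 1 to 4 held 12.7, 15.2, 12.2 and 13.3 CPM, and ketogenic replicates 1 to 4 held 7.27, 8.93, 8.93 and 13.4 CPM. Ketogenic replicates 1 to 3 were below every control library, whereas ketogenic replicate 4 was above 3 of the 4 control libraries. The log2 change was -0.47 ± 0.15 (SE), with a 95% interval of -0.79 to -0.14 before adjustment and an edgeR adjusted p of 0.0733. Without ketogenic replicate 4 it was -0.67, with an adjusted p of 0.0108. The summed level of 8 oligodendrocyte markers was 5367, 4896, 5043 and 6475 CPM in ketogenic replicates 1 to 4 and 5285 to 5599 CPM in control libraries. Ketogenic replicate 4 was the highest of all libraries for these markers, and control replicate 2 was the highest for S1pr5. Ketogenic replicates 2 and 3 were below every control library for both. Ketogenic replicate 1 was below every control library for S1pr5 and inside the control range for the marker sum. Of those 8 markers 1 fell, Ermn (-0.32), and 0 rose, and their part in the S1pr5 values was not tested.

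The 250 bases before the RefSeq start of S1pr5 are shown because it is the receptor whose values divided the ketogenic libraries, with capitals on motif matches.
S1pr5, chr9:21248444-21248693 (-), GRCm38.p6: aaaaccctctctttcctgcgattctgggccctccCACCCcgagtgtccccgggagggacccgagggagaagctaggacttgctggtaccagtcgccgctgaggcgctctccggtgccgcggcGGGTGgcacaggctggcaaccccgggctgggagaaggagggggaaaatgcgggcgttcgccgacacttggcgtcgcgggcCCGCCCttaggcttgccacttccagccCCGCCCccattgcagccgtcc
The motifs searched on both strands were CACCC, the GC box (GGGCGG), the CCAAT box, the TATA box (TATAAA) and the sequence AGGTCA, none of which contains another. This window held 2 matches of CACCC, at 216 and 128 bases before the start, and 2 of the GC box, at 48 and 21 bases. CACCC occurred in 52.0% and the GC box in 32.7% of 32851 RefSeq windows of the same length. G and C made up 69.2% of its bases, against a median of 52.4% over those windows. A match is a description of the letters and not a site of binding.

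S1pr3 and S1pr2 were low, and neither passed. S1pr3, which couples to several G protein classes, lies on chr13:51408639-51422797 and held 6.26 to 9.09 CPM in control and 5.72 to 8.36 CPM in ketogenic libraries. Its log2 change was -0.18 ± 0.15 (SE), with a 95% interval of -0.50 to 0.14. S1pr2 lies on chr9:20962361-20976781 and rested on 55 to 97 counts per library. It held 1.62 to 2.30 CPM in control and 1.81 to 2.49 CPM in ketogenic libraries, with a log2 change of 0.19 ± 0.24 and an interval of -0.31 to 0.69. The S1pr3 gene holds an opposite-strand transcript, Gm32834, over 10048 bases, which was not analysed here. The groups overlapped for both receptors, and at this depth changes inside those intervals could not be told from none. The lymphoid receptor S1pr4, which was under the count filter, had 0 to 29 counts per library.

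**Figure D2:**
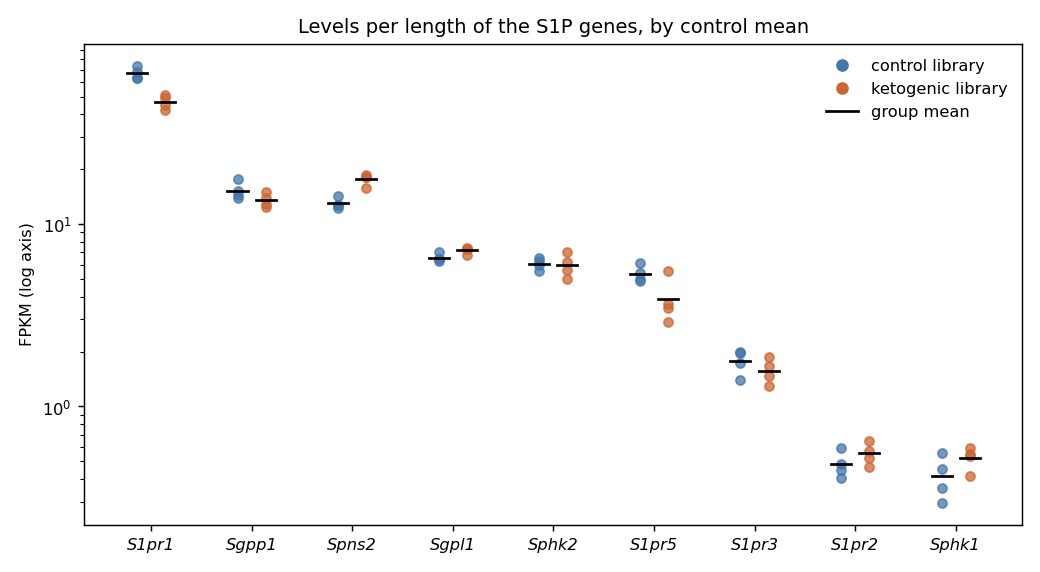
FPKM of each library on a log axis, control in blue and ketogenic in orange, with the group mean as a black line and genes ordered by their control mean. S1pr1 stands highest in every library, and S1pr2 and Sphk1 lie lowest, at under 1 FPKM.

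Per length, S1pr1 dominated the receptors in every library. Its control level was 67.1 ± 5.02 FPKM, against 5.34 ± 0.56 for S1pr5, 1.77 ± 0.27 for S1pr3 and 0.48 ± 0.08 for S1pr2 (SD, n = 4). It made up 88.7% to 90.8% of the summed FPKM of the 5 receptors in control and 86.1% to 90.5% in ketogenic libraries. The sum itself was 74.8 ± 4.80 FPKM in control and 53.0 ± 4.45 FPKM in ketogenic libraries. Across all 9 genes the control order was S1pr1, Sgpp1, Spns2, Sgpl1, Sphk2, S1pr5, S1pr3, S1pr2 and Sphk1. Neighbours whose control ranges overlapped were Sgpp1 and Spns2, Sgpl1 and Sphk2, Sphk2 and S1pr5, and S1pr2 and Sphk1. In ketogenic libraries Spns2, at 17.7 ± 1.27 FPKM, stood above Sgpp1, at 13.5 ± 1.13 FPKM, with no overlap between their ranges.

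Spns2 encodes the membrane carrier that exports S1P from endothelial and other cells. The gene (ENSMUSG00000040447.15) lies on chr11:72451638-72489904, minus strand, with 13 exons in the listed transcript that has most. Control replicates 1 to 4 held 44.2, 48.4, 43.3 and 41.2 CPM, and ketogenic replicates 1 to 4 held 54.0, 60.5, 65.2 and 60.6 CPM. Every ketogenic library was higher than every control library, with the smallest gap between control replicate 2 and ketogenic replicate 1. Means were 44.3 ± 3.01 and 60.1 ± 4.61 CPM (SD, n = 4 each). The log2 change was 0.44 ± 0.07 (SE), which is 1.36-fold higher, with an edgeR adjusted p of 0.00597 and the 30th smallest p. Its call held in all 8 fits that leave out 1 library (adjusted p up to 0.026), and not without ketogenic replicates 3 and 4 together, where it was 0.37 with an adjusted p of 0.0571.

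The Spns2 gene overlaps its opposite-strand neighbour Mybbp1a by 131 bases, and Mybbp1a had a log2 change of 0.01 ± 0.05. The FPKM of S1pr1 was 4.46 to 5.76 times that of Spns2 in control libraries and 2.28 to 3.24 times in ketogenic libraries. The ratios did not overlap, which follows from S1pr1 lying wholly lower and Spns2 wholly higher in ketogenic libraries and adds no further result.

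The RefSeq table lists 1 start for Spns2, which lies 14877 bases inside the GENCODE gene, at the start of a noncoding transcript. The 250 bases before it are shown as the only window for the gene that rose, with capitals on motif matches.
Spns2, chr11:72475028-72475277 (-), GRCm38.p6: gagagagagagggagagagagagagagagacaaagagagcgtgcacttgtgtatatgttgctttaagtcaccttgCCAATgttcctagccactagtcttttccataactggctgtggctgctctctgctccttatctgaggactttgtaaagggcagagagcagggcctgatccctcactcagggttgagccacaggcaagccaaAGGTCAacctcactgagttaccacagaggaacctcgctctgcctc
It held 1 CCAAT, at 175 bases before the start, and 1 AGGTCA, at 45 bases, motifs found in 33.8% and 14% of all windows, and no CACCC or GC box. It held 2 CpG dinucleotides, against 22 in the S1pr5 window. The S1pr5 window lies directly before its GENCODE gene start and the Spns2 window inside its gene, so they are not alike in position. Windows were found for 8 of the 9 genes, and S1pr1 was the gene not matched.

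The kinases that make S1P did not pass. Sphk2, found in the nucleus and at mitochondria, lies on chr7:45709467-45718002 and held 25.8, 27.6, 23.5 and 26.6 CPM in control replicates 1 to 4 and 21.3, 23.5, 27.2 and 29.1 CPM in ketogenic replicates 1 to 4. Ketogenic libraries thus lay on both sides of the control range. Its log2 change was -0.03 ± 0.10 (SE), with an interval of -0.24 to 0.17. Sphk2 overlaps the opposite-strand genes Rpl18 by 2546 bases and Dbp by 737 bases, and the sources used here do not say whether counting used strand, so its values are uncertain. Rpl18, a ribosomal protein gene, was 1.30-fold higher in ketogenic libraries, and the clock output gene Dbp (0.10 ± 0.06 on the log2 scale) was not past the threshold.

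Sphk1, the cytosolic kinase, lies on chr11:116530925-116536674, overlaps the opposite-strand transcript Gm29292, not analysed here, and rested on 42 to 93 counts per library. It held 1.24, 1.47, 1.88 and 2.28 CPM in control replicates 1 to 4, and 2.23, 2.23, 1.76 and 2.39 CPM in ketogenic replicates 1 to 4. The groups overlapped, and its control libraries had the widest relative spread of the control values, with a coefficient of variation of 26.7%. The log2 change was 0.32 ± 0.26, with an interval of -0.23 to 0.87. Sphk2 made up 91.9% to 95.3% of the summed kinase FPKM in control and 90.3% to 93.7% in ketogenic libraries.

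The genes of S1P breakdown did not pass either, and their values leaned in opposite directions. Sgpl1, the lyase that cleaves S1P irreversibly, lies on chr10:61098642-61147703 and held 27.9, 26.7, 27.7 and 29.66 CPM in control replicates 1 to 4 and 31.7, 30.8, 29.68 and 30.5 CPM in ketogenic replicates 1 to 4. The groups did not overlap in CPM, by a margin of only the last digits between control replicate 4 and ketogenic replicate 3. In FPKM they did overlap, at 6.29 to 7.01 in control and 6.77 to 7.40 in ketogenic libraries. The log2 change was 0.13 ± 0.07 (SE), with an interval of -0.01 to 0.28 and an edgeR adjusted p of 0.245. Sgpp1, which removes the phosphate from S1P, lies on chr12:75714249-75735729 and held 59.8, 50.0, 48.1 and 45.6 CPM in control and 46.4, 42.1, 42.5 and 48.6 CPM in ketogenic replicates 1 to 4. The groups overlapped, and control replicate 1 was the highest library. Its log2 change was -0.18 ± 0.08, with an interval from -0.35 to just under 0 before adjustment and an adjusted p of 0.193.

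**Figure D3:**
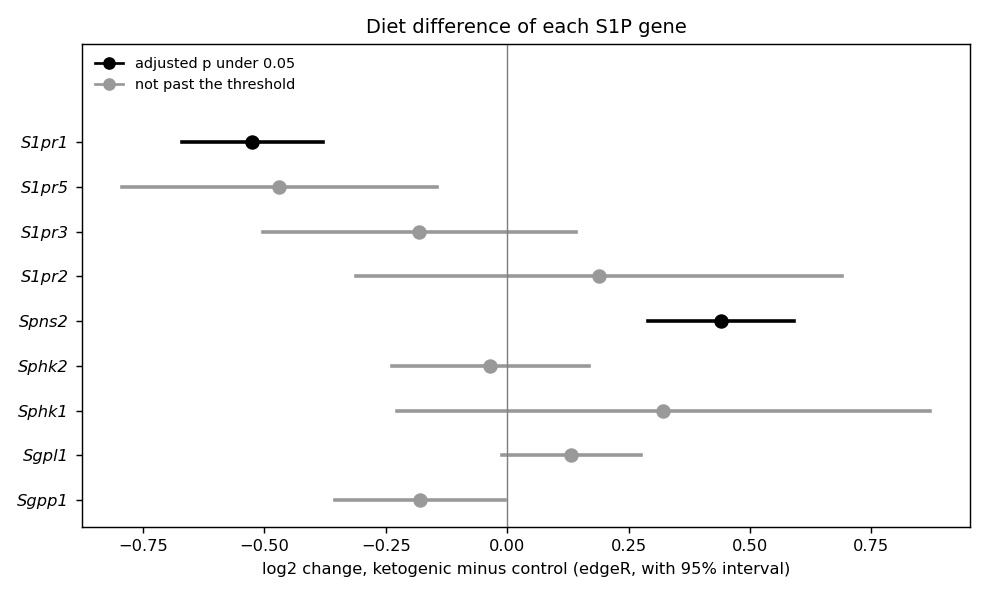
Log2 change of each of the 9 S1P genes, ketogenic minus control, as a point with its 95% interval before adjustment; black marks an adjusted p under 0.05 and grey the rest. S1pr1 (-0.52) and Spns2 (0.44) are black on opposite sides of 0, and the widest interval is that of Sphk1.

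The 9 genes also differed in how evenly they were measured within a diet. Coefficients of variation over 4 ketogenic libraries ran from 2.75% for Sgpl1 to 27.5% for S1pr5, and over 4 control libraries from 4.37% for Sgpl1 to 26.7% for Sphk1. S1pr1 and Spns2 lay between 6.79% and 8.47% in both diets. S1pr5 spread more in ketogenic (27.5%) than in control libraries (9.92%), with ketogenic replicate 4 as the high value, and the difference in spread was not tested.

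**Figure D4:**
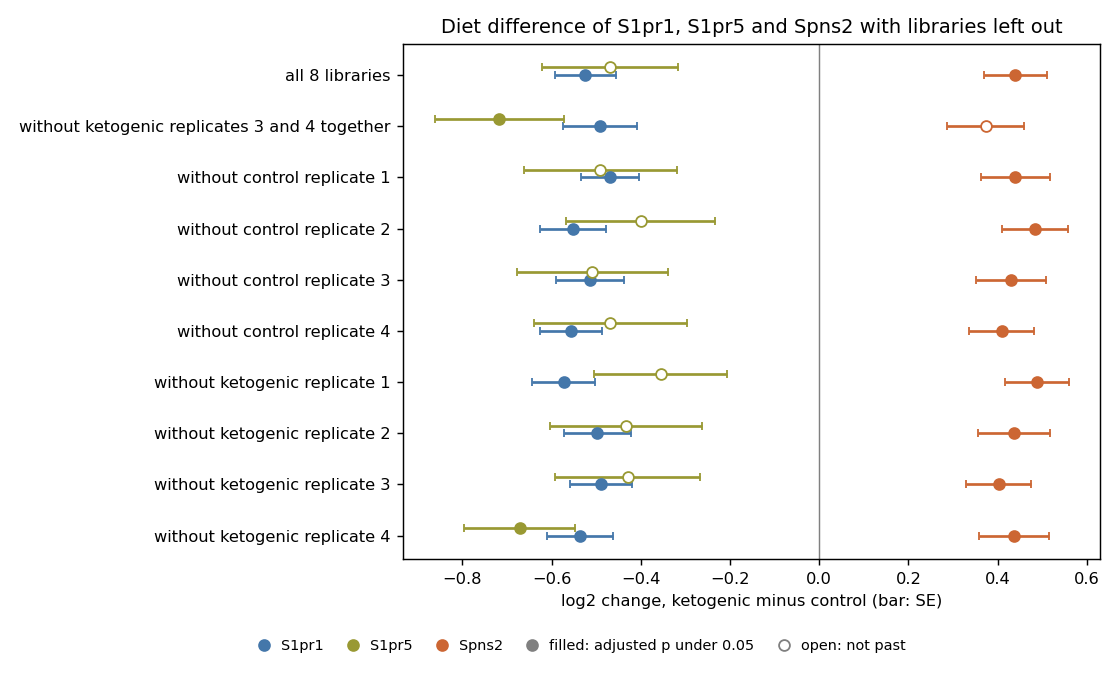
Log2 change of S1pr1 (blue), S1pr5 (olive) and Spns2 (orange), ketogenic minus control, with its SE, in the fit of all 8 libraries and with libraries left out; filled points have an adjusted p under 0.05. S1pr1 is filled throughout, from -0.57 to -0.47, Spns2 is open without ketogenic replicates 3 and 4 together (0.37), and S1pr5 is filled only without ketogenic replicate 4 (-0.67) or replicates 3 and 4 (-0.72).

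For each of S1pr1 and Spns2, the 3 other genes whose log2 CPM followed it most closely over the 8 libraries were found. The measure was the root mean square difference after centring each gene on its mean. Both diets enter that measure, so similar diet changes of the genes found are fixed by the search. Nearest to S1pr1, which itself varied by 0.28, were Gprin3 (0.06), the phosphatase gene Dusp19 (0.07) and Dio3 (0.07), which encodes the deiodinase that inactivates thyroid hormone. Their own log2 changes were -0.46, -0.55 and -0.53, and Dio3 did not pass (adjusted p = 0.199). Nearest to Spns2, which varied by 0.24, were Lrrc73 (0.06), Tm6sf1 (0.06) and the leukocyte tetraspanin gene Cd53 (0.07), with changes of 0.40, 0.45 and 0.37, the last not past the threshold (adjusted p = 0.0867).

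Other genes around S1P came from 5 lists of 68 genes, of which 62 were tested and 4 were under the count filter. Of the 62, 4 rose, 4 fell and 54 did not pass, a share of 12.9%, with a median log2 change of -0.02. Over all tested genes 6.52% passed, 3.3% higher and 3.22% lower, which is the background for each list. The lists were chosen with earlier results of these data known, so nothing is read from the share of 12.9%. Among 8 tested genes that carry, export or degrade S1P, 1 fell and 0 rose. It was Plpp3, a lipid phosphatase of the cell surface that removes extracellular S1P and lysophosphatidic acid, at 306, 292, 294 and 283 CPM in control and 251, 243, 241 and 273 CPM in ketogenic replicates 1 to 4. The groups did not overlap, and its change on the log2 scale was -0.22 ± 0.05 (SE), with an edgeR adjusted p of 0.0289. Its call was kept only without control replicate 4 or ketogenic replicate 4 among the 8 fits with 1 library left out (adjusted p up to 0.0955). Sgpp2 (-0.16), Abca1 (0.12), Abcc1 (0.10) and Plpp1 (0.14) did not pass.

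Of 17 tested genes of ceramide synthesis 1 rose, Ormdl3, which restrains serine palmitoyltransferase at the entry to the pathway, and 0 fell. It held 39.7, 40.9, 45.2 and 44.3 CPM in control and 52.3, 53.2, 54.2 and 53.6 CPM in ketogenic replicates 1 to 4. The groups were well apart, and the difference on the log2 scale was 0.33 ± 0.06 (SE), with an edgeR adjusted p of 0.0116. Its call held in all 8 such fits (adjusted p up to 0.0469), and not without ketogenic replicates 3 and 4 together (0.094). The list's median log2 change was -0.0046, and Cers1 was not analysed here.

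Of 19 tested genes that turn sphingolipids over to and from ceramide 3 rose and 1 fell, with a median of 0.01. Over all tested genes 3.3% rose and 3.22% fell. Smpd3, a neutral sphingomyelinase, went from 93.1 ± 2.90 to 108 ± 1.15 CPM (edgeR adjusted p = 0.023, n = 4 each). Gba2, a glucosylceramidase outside the lysosome, went from 66.5 ± 5.15 to 80.2 ± 2.61 CPM, and Psap, the precursor of the saposins, from 1719 ± 61.3 to 1943 ± 67.9 CPM. Asah2, a neutral ceramidase that yields sphingosine, went from 28.3 ± 2.75 to 22.0 ± 3.31 CPM, or -0.36 ± 0.10 on the log2 scale (edgeR adjusted p = 0.0486). The calls of these 4 genes, at adjusted p of 0.023 to 0.0486 in edgeR, lay near the threshold and depended on single libraries. They are not set against S1pr1 and Spns2, which were chosen with this contrast known. Of the 8 fits with 1 library left out, Smpd3 passed without control replicate 4, ketogenic replicate 3 or ketogenic replicate 4, and Gba2 without control replicate 4, ketogenic replicate 1 or ketogenic replicate 3. Psap passed only without control replicate 4 and Asah2 only without ketogenic replicate 4, with adjusted p up to 0.0723, 0.0876, 0.127 and 0.149 for the 4 genes in turn. Asah2 was at an adjusted p of 0.0676 with library size alone. Once the trend with GC and length was removed, none of these 4 passed, with log2 changes of 0.18 for Smpd3 (0.22 before), 0.23 for Gba2 (0.27 before), 0.14 for Psap (0.18 before) and -0.27 for Asah2. Acer1 was not analysed here.

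Of 13 genes that S1P receptors signal through 2 fell and 0 rose, with a median of -0.09, where 3.22% of all tested genes fell. Gnai2, an inhibitory G protein subunit, changed by -0.23 ± 0.07 on the log2 scale (edgeR adjusted p = 0.0494) and the GTPase gene Rhoa by -0.19 ± 0.05 (adjusted p = 0.0468). Each passed, of the 8 fits with 1 library left out, only without control replicate 4 (adjusted p up to 0.171 and 0.146), and Gnai2 was at 0.0507 with DESeq2 size factors and 0.055 with library size alone. Removing the trend with GC and length left Rhoa at -0.11 (adjusted p = 0.301) and Gnai2 at -0.28, still past the threshold (adjusted p = 0.043). Of 5 tested receptors for lysophosphatidic acid, the lipid closest to S1P in its signalling, 0 passed and the median was 0.16. Lpar1, which is known from oligodendrocytes, had a log2 change of -0.23 ± 0.09 (edgeR adjusted p = 0.142). The others were Lpar2 (-0.21 ± 0.44), Lpar4 (0.54 ± 0.37), Lpar5 (0.16 ± 0.39) and Lpar6 (0.52 ± 0.31).

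**Figure D5:**
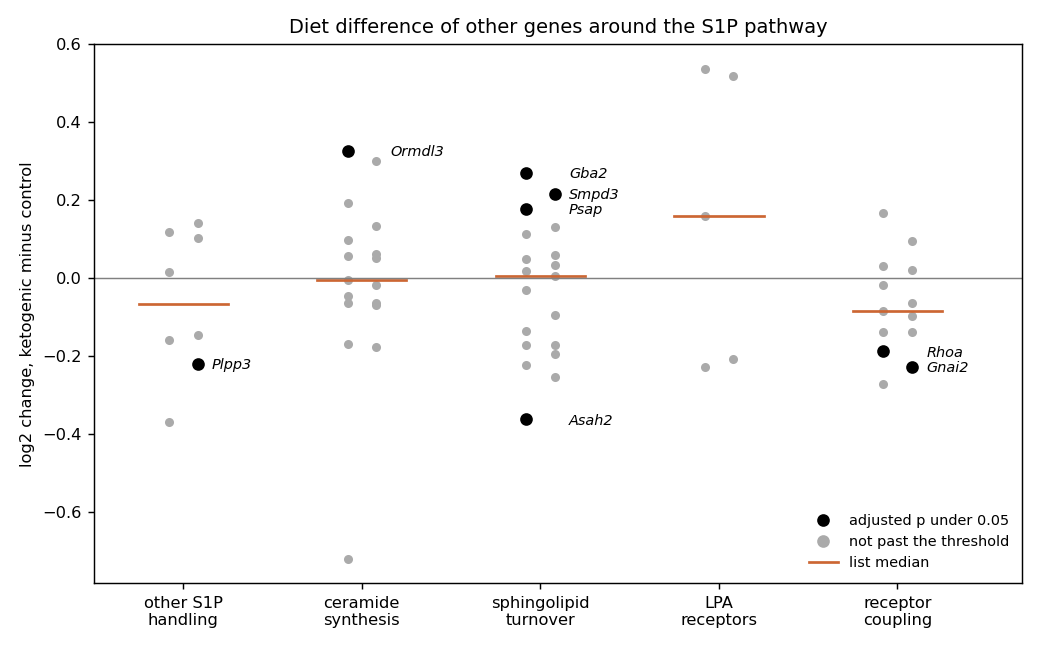
Log2 change, ketogenic minus control, of the 62 tested genes in 5 lists around S1P; black points passed an adjusted p under 0.05 and are named, grey points did not, and the orange line is the list median. The 8 named genes divide evenly above and below 0, and list medians run from -0.09 to 0.16.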

How the data were processed

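The authors deposited raw counts per gene symbol and FPKM values for the same 8 libraries. Each deposited FPKM is its count over the library total and over a gene length that was constant across libraries (relative spread of at most 1.79e-07 for genes with at least 10 counts). Libraries were made from column-purified RNA with a SMARTer mRNA kit, per the labels' protocols. The submitters' processing notes list GRCm38 and mm10. No aligner, counter or annotation is named in the sources used here.

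The test was edgeR 4.0.16 (R 4.3.3) on counts of all 8 libraries: filterByExpr, which kept 14895 genes and left out 3088, TMM factors, an intercept and diet, and the quasi-likelihood F test. P-values were adjusted by Benjamini-Hochberg over all tested genes. SE is the log2 change divided by the square root of F, and intervals are 95%. The test was run first on simulated counts. Alternatives used DESeq2 1.42.0 and limma 3.58.1 (log2(FPKM + 1) and log2(FPKM + 0.1)). The GC and length trend was a loess fit (span 0.3) per library, and GC was known for 96.7% of genes. Coding sequences were aligned with Biopython 1.88. Counting error limits genes under 100 counts most.

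The members and lists were chosen with earlier results of these data known. Named genes are every member, list genes past the threshold (at most 4 per list, by p) or without a row in the table, and the 3 genes nearest in pattern to each passing member, by log2 CPM with a prior count of 2. List genes named beyond that rule (Sgpp2, Abca1, Abcc1, Plpp1, the tested Lpar genes and the markers) were chosen after their values were seen.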

Additional observations from a re-analysis of the deposited data

How the results depend on the processing

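Among the 9 S1P genes 2 passed, and the number was 2 or 3 under all 19 alternatives. S1pr1 kept its direction and its call in all 19, between -0.57 and -0.47. Spns2 did so in 18, the exception being the fit without ketogenic replicates 3 and 4 together (0.37). S1pr5 also passed with the DESeq2 Wald test (-0.47, adjusted p = 0.0314). S1pr2 and Sphk1 had no adjusted p there. The other members passed in none, and the value of Sphk2 ran from -0.21 to 0.04.

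Counts of all passing genes (971) and of pathway genes (8) moved more. The DESeq2 Wald test gave 1774 and 12. Limma gave 489 and 3 on log2(FPKM + 1), 560 and 3 on log2(FPKM + 0.1), and 64 and 1 on log2(FPKM + 1) with no filter. Removing the trend with GC and length left 308 and 3. Leaving out ketogenic replicates 3 and 4 together left 90 and 0. With 1 library left out they ran from 146 (without control replicate 1) to 1900 and from 1 (without control replicate 1, 2 or 3, or ketogenic replicate 2) to 11, both highest without control replicate 4.

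Whether the replicate numbers pair the libraries is not known. Same-numbered libraries had correlations of 0.02 to 0.08 in their deviations from the group means. Control replicates 3 and 4 and ketogenic replicates 2 and 3 had their best match in the same-numbered library of the other diet. Control replicates 1 and 2 and ketogenic replicates 1 and 4 did not. With the replicate number as a block, 1528 genes, 11 pathway genes and 3 members passed, S1pr5 (-0.50, adjusted p = 0.031) among them. No scaling alternative moved the median of all genes by more than 0.1. Depth limits S1pr2 and Sphk1, at 42 to 97 counts per library.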
